A study of Mus musculus with 10 samples.

Results

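The HIV-1 gp120 mouse carries a transgene for the viral surface protein that binds CD4 and a chemokine co-receptor, and it is used as a model of brain disease in HIV infection. Polyadenylated RNA of the cerebral cortex was sequenced from 5 transgenic mice (gp120tg) and 5 wild-type mice (WT), all aged 12 months, with no treatment named. The 2 genes described here are MGP_BALBcJ_G0019191 and MGP_BALBcJ_G0019190 (G0019191 and G0019190 below), out of 41880 rows of the table of read counts. They were picked from earlier results of the same libraries, the former as the most abundant gene with a large difference between genotypes and the latter because its identifier number precedes it. Their levels in gp120tg against WT are therefore given as a description, without a test. Levels are in CPM, the reads of a gene relative to the reads of its whole library, which was scaled by the factors of the trimmed mean of M values.

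The identifiers have the form that Ensembl gives to its annotation of the BALB/cJ mouse strain, and the table lists 40303 of them beside 1577 numbered models without that prefix. None (0) of the identifiers matched the gene and promoter tables of the C57BL/6J reference used here. The symbol, product, chromosome, exons and sequence of both genes are thus not given. The labels name the transgene but not its promoter, the cells that express it, its insertion site, the founder line, the strain background or the sex of the mice. As background, a widely used gp120 line places the viral sequence under regulatory sequence of Gfap, the gene of the intermediate filament of astrocytes, and whether these mice belong to that line is not given in the sources used here. Markers of cortical cell types could not be looked up without symbols, so the labelled tissue was not checked against them.

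Reads that a transgene supplies reach a gene's row where the construct and the annotated gene share sequence, and such reads add to those of the gene at its own locus. The construct's sequence is not given in the sources used here. Whether the row of G0019191 counts reads of the construct, of a gene of the mouse or of both cannot be told apart in these counts. More cells of a type and more RNA per cell cannot be told apart either in RNA of whole tissue. Library totals ran from 16451161 to 19774880 reads, and both genes passed the filter on low counts, as did 16941 rows in all.

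G0019191 was higher in every gp120tg library than in any WT library, and it stood among the most abundant rows of the transgenic cortex. In gp120tg replicates 1 to 5 it had 205360, 200203, 159354, 151314 and 179822 reads, equal to 10135, 10243, 8395, 8770 and 9103 CPM. In WT replicates 1 to 5 it had 2228, 2369, 2314, 2763 and 4394 reads, equal to 140.4, 140.6, 141.4, 169.6 and 232.5 CPM. The gp120tg libraries lay close together, with replicates 1 and 2 above the other three, while in WT replicate 5 stood highest and replicate 4 next. The lowest gp120tg library was 36.1 times the highest WT library. The group means were 9329 ± 825 CPM in gp120tg and 164.9 ± 39.8 CPM in WT (SD, n = 5 each), and the difference was fitted at 5.82 ± 0.182 on the log2 scale (estimate ± standard error). Groups that do not overlap, with gp120tg higher, were seen for 1128 of the 16941 genes tested (6.66%), and nothing is read from that share here because the pair was chosen on this contrast.

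G0019190 was near the limit of detection in WT and of moderate level in gp120tg. Its reads in gp120tg replicates 1 to 5 numbered 368, 295, 350, 201 and 418, or 18.2, 15.1, 18.4, 11.7 and 21.2 CPM. In WT replicates 1 to 5 they numbered 7, 0, 1, 10 and 2, or 0.441, 0, 0.0611, 0.614 and 0.106 CPM. A count of 0 in WT replicate 2 allows a level of up to 0.181 CPM, taking 3 reads as the limit. The groups did not overlap, and the lowest gp120tg library was 19.0 times the highest WT library. Means were 16.9 ± 3.64 CPM in gp120tg and 0.244 ± 0.268 CPM in WT (SD, n = 5 each), with a fitted log2 fold change of 6.11 and a standard error of 0.466. Because the WT value rests on 20 reads over 5 libraries, the size of this difference is far less precise than that of G0019191, and the log2 fold change was 6.78 without WT replicate 4 and 5.79 without WT replicate 2.

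**Figure D1:**
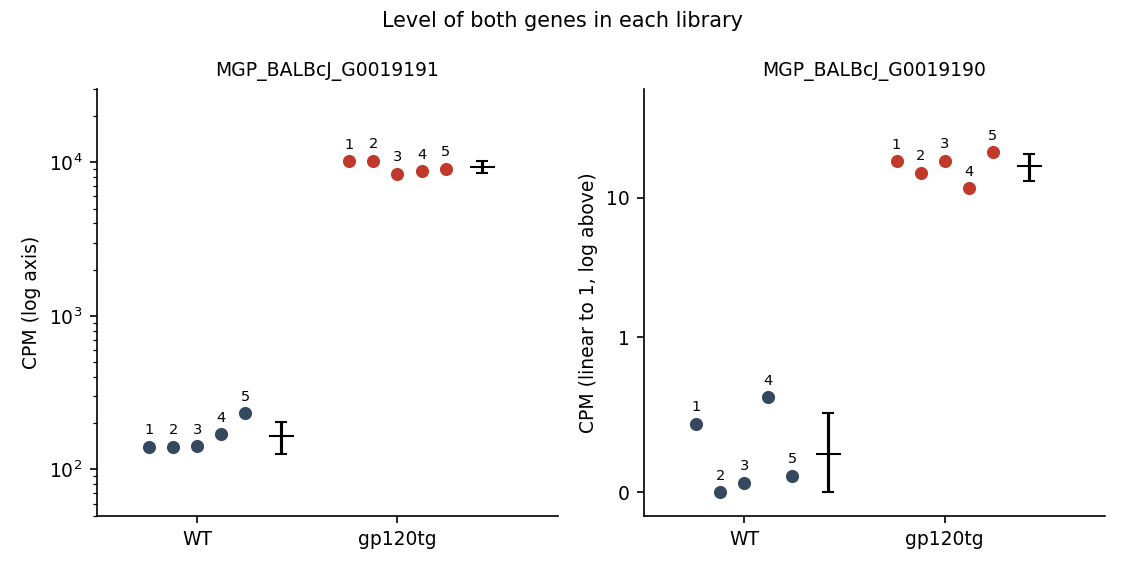
Level of G0019191 (left, CPM on a log axis) and G0019190 (right, CPM, linear up to 1 and log above) in each library; numbers are replicates, and bars beside the points give the group mean and SD, cut at 0 for G0019190 in WT. The gp120tg libraries sit at 8395 to 10243 CPM on the left and 11.7 to 21.2 CPM on the right, above all WT libraries.

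Relative to each other, the reads of both rows stood in proportions that overlapped between the genotypes. Over all gp120tg libraries there were 1.82 reads of G0019190 per 1000 reads of G0019191 (95% Wilson interval 1.74 to 1.91, 1632 against 896053 reads). Over all WT libraries there were 1.42 per 1000 (0.920 to 2.20, 20 against 14068 reads). How this ratio differs between genotypes follows from the fold changes of both rows, on which the pair was chosen. It is given as a description, and the intervals over summed reads are not a test of equal proportions. Single gp120tg libraries gave 1.79, 1.47, 2.20, 1.33 and 2.32 per 1000 for replicates 1 to 5, and those of WT 3.14, 0, 0.432, 3.62 and 0.455. The WT libraries lay on both sides of the whole gp120tg range. They differed among themselves beyond counting error if reads are taken as independent: the interval of WT replicate 4 (1.96 to 6.67) did not overlap those of WT replicate 2 (0 to 1.62) and WT replicate 5 (0.125 to 1.66). The intervals over summed reads do not include this spread between libraries. The mean was 1.82 ± 0.436 per 1000 in gp120tg and 1.53 ± 1.71 in WT (SD, n = 5 each). All these intervals take reads as independent. Reads without molecular identifiers are not independent molecules, so the intervals may be too narrow even for counting error.

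The proportion also differed among the transgenic mice. It was lowest in gp120tg replicate 4 (1.33 per 1000, interval 1.16 to 1.53) and highest in gp120tg replicate 5 (2.32, interval 2.11 to 2.56), and these intervals do not overlap. The level of G0019190 in gp120tg had a coefficient of variation of 21.5%, where counting alone would give about 5.54%, and in WT one of 109.7%, where counting alone would give about 50%. For G0019191 in gp120tg the coefficient of variation was 8.84%, where counting alone would give about 0.236%, so both genes varied beyond the counting of independent reads. Of the 200 genes nearest to G0019190 in gp120tg level, 43 were more variable than it, and their median coefficient of variation was 14.8%. The strand setting of the counting is not given in the sources used here, so reads of overlapping genes on opposite strands, or reads assigned to either of a pair of similar genes, cannot be told apart for these rows.

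**Figure D2:**
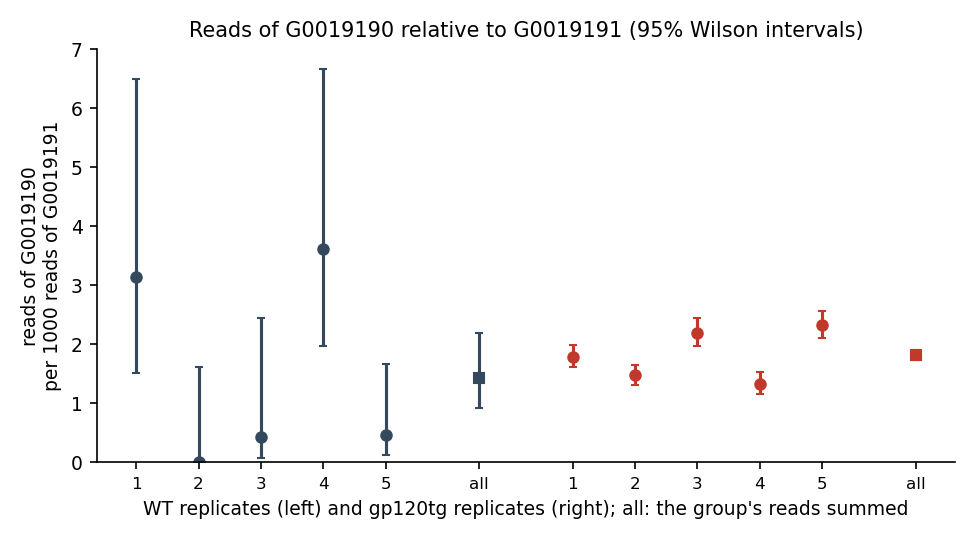
Reads of G0019190 per 1000 reads of G0019191 in each library and over each group's summed reads (squares); bars are 95% Wilson intervals. The summed values are 1.42 in WT and 1.82 in gp120tg, and the single WT libraries spread from 0 to 3.62.

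The level that G0019191 reached in gp120tg set it beside the most abundant rows of the cortex. Its mean of 9329 CPM was followed by MGP_BALBcJ_G0040199 at 8082 ± 2723 CPM, MGP_BALBcJ_G0024437 at 4598 ± 1013, MGP_BALBcJ_G0024566 at 4312 ± 947 and MGP_BALBcJ_G0017752 at 4158 ± 710 CPM (SD, n = 5). None of these 4 differed between genotypes at an adjusted p under 0.05 in edgeR's quasi-likelihood test, with log2 fold changes of -0.32 to 0.13 and adjusted p-values of 0.366 to 0.909. Of all genes tested 8.37% were below that threshold, so nothing is read from this count over 4 rows. CPM are not corrected for gene length, so this order is of reads and not of RNA molecules. G0019191 was ahead of MGP_BALBcJ_G0040199 in gp120tg replicates 1, 2 and 4, where it ranked 1 among all rows, and it ranked 2 in replicates 3 and 5.

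For scale, and as a description only since G0019191 was picked for its level and its difference, other genes of high level in gp120tg differed less. Among the 68 genes with a mean of at least 1000 CPM in gp120tg, the next largest log2 fold change was 0.66, that of MGP_BALBcJ_G0024801, which also had the next largest gain in mean level (987 CPM, against 9165 CPM for G0019191). Of the genes tested, 12 had a larger log2 fold change than G0019191, among them G0019190. Leaving aside G0019190 and MGP_BALBcJ_G0007527, a gene abundant in only 3 gp120tg mice, the other 10 had mean levels of 1.70 to 60.1 CPM in gp120tg. MGP_BALBcJ_G0024801 was chosen after its values were seen.

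**Figure D3:**
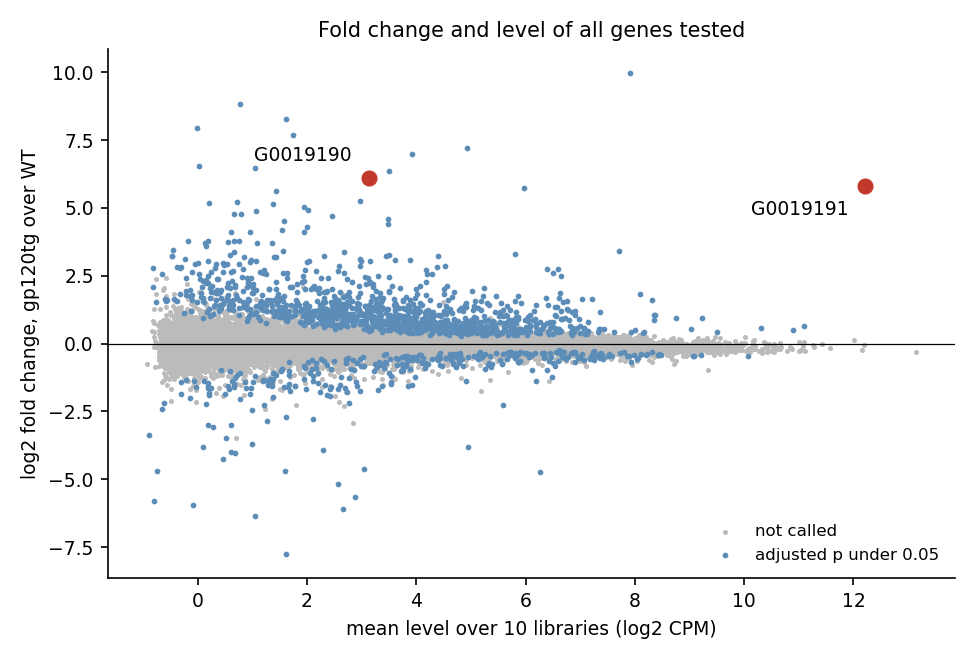
Log2 fold change (gp120tg over WT) against mean level (log2 CPM over 10 libraries) for the 16941 genes tested; blue points had an adjusted p under 0.05 and red points are the pair. G0019191, at a log2 fold change of 5.82, lies at the right above the other genes of high level, and G0019190, at 6.11, lies among genes of moderate level.

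No other gene had as high a mean in gp120tg, so the spread of G0019191 could only be set beside that of less abundant genes. Its coefficient of variation there, 8.84%, was lower than that of 33 of the 50 genes nearest in gp120tg level, whose median was 10.9%. These 50 genes lay at 1131 to 8082 CPM, and the 4 rows next in level had coefficients of variation of 17.1% to 33.7%. In WT its coefficient of variation was 24.1%, against a median of 11.7% over the 200 genes nearest in WT level, of which 17 were more variable. WT replicate 5 was the highest WT library for G0019191: over the other 4 the level was 148 ± 14.4 CPM (SD, n = 4) and the coefficient of variation 9.73%. Of the same 200 genes, 130 were then more variable. The library left out was the extreme of G0019191 itself, so its spread was bound to fall. The 200 genes lost that same library and not their own extremes, so nothing is read from this rank. The 200 genes of like WT level changed at most 3.01-fold upward. Of them 8 (4.0%) were called, that is, had an adjusted p under 0.05 by edgeR between genotypes, where 1418 of all 16941 genes tested were called (8.37%).

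The rows around the pair in identifier number were next examined, to see whether the difference extended beyond these rows. The sources used here do not state that the numbers follow the order of genes on a chromosome, so nearness here is nearness in number. The row just below the pair, MGP_BALBcJ_G0019189, had 59 to 103 reads in gp120tg and 42 to 87 in WT, and its log2 fold change was 0.07 (standard error 0.233, edgeR adjusted p = 0.904). The row just above, MGP_BALBcJ_G0019192, had 0 to 7 reads in gp120tg and 0 to 12 in WT, too few to be tested. The next ones outward, MGP_BALBcJ_G0019188 (102 ± 9.18 against 105 ± 8.43 CPM in WT) and MGP_BALBcJ_G0019193 (7.87 ± 1.32 against 8.46 ± 1.20 CPM in WT), had log2 fold changes of -0.05 and -0.11 (SD, n = 5 each; edgeR adjusted p = 0.821 and 0.785). In each of these flanking rows the groups overlapped.

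Within 5 numbers of the pair, 9 of 10 rows could be tested. None (0) was called by edgeR, 0 had an unadjusted p under 0.05, and DESeq2 called 0. Their log2 fold changes ran from -0.11 to 0.41. Within 50 numbers on each side, 100 rows were listed and 84 tested, of which 6 (7.14%) were called, near the 8.37% of all genes tested. In gp120tg 5 of these neighbours were higher and 1 was lower, where 6.4% of all genes tested were called higher and 1.97% lower. The median log2 fold change of the 84 was -0.02, against -0.03 over all genes tested, and 74 of them lay within 0.5 of 0.

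The 6 called neighbours changed far less than the pair. Nearest in number was MGP_BALBcJ_G0019181, which fell from 2.75 ± 0.688 CPM in WT to 1.21 ± 0.261 in gp120tg (SD, n = 5 each; edgeR adjusted p = 0.0119). MGP_BALBcJ_G0019177 rose from 63.0 ± 4.26 to 97.3 ± 8.82 CPM (edgeR adjusted p = 0.000494), and all its gp120tg libraries (1464 to 2079 reads) had more reads than all WT libraries (971 to 1156). The other four rose as well: MGP_BALBcJ_G0019210 by 1.55 on the log2 scale, MGP_BALBcJ_G0019226 by 0.60, MGP_BALBcJ_G0019150 by 1.70 and MGP_BALBcJ_G0019145 by 1.23 (edgeR adjusted p = 0.000418 to 0.0237). MGP_BALBcJ_G0019150, with the largest of these changes, rose 3.24-fold, from 1.27 ± 0.229 to 4.14 ± 0.888 CPM (SD, n = 5 each).

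**Figure D4:**
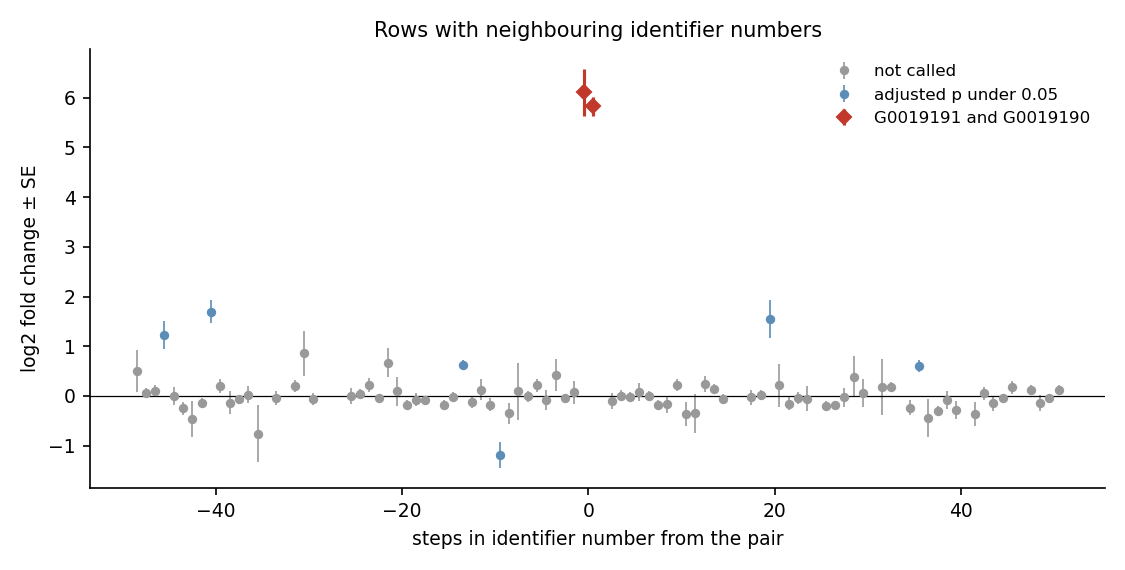
Log2 fold change (gp120tg over WT, bars are standard errors) of the 84 rows tested within 50 identifier numbers of the pair, by steps in number; blue rows had an adjusted p under 0.05. The pair (red) is at 5.82 and 6.11, and every other row lies between -1.18 and 1.70.

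Whether the levels of the pair move together within the groups could not be decided from these counts. Deviations of log2 CPM from the group mean, over 10 libraries, gave a Pearson r of 0.07 between G0019191 and G0019190 (exact two-sided permutation within groups, p = 0.909) and a Spearman rho of 0.103 (exact permutation p = 0.836). Without WT replicate 5 and gp120tg replicate 2, the libraries farthest from the median of G0019191, r was 0.515 (exact permutation p = 0.224). Deviations were there taken from the means of the libraries kept. In WT the deviations of G0019190 rest on 0 to 10 reads, so a relation there was not detectable at this depth. They were also the larger ones, with an SD of 1.15 log2 CPM in WT against 0.330 in gp120tg. The r over both groups is thus set mostly by WT counts near the floor, and nothing is concluded from it. In gp120tg, where counts are ample, replicate 5 had the highest level of G0019190 and the middle level of G0019191, and replicate 2 had the highest level of G0019191 and the next to lowest of G0019190.

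Relations of G0019191 with 3 other measures of the libraries were computed in the same way, making a family of 4. Its deviations followed the library total, with r = 0.816 (exact permutation within groups, p = 0.0111, adjusted p = 0.0444) and rho = 0.770 (exact p = 0.0103, adjusted p = 0.0414). This relation rested on WT replicate 5, which had the highest total and the highest level in WT: without it r was 0.558 (exact permutation p = 0.127). Without it and gp120tg replicate 2, over the other 8 libraries, r was 0.554 (exact permutation p = 0.146). Both values take deviations from the means of the libraries kept. With the second principal component of all other genes, r was -0.653 (exact permutation p = 0.0413, adjusted p = 0.0826) and rho -0.539 (exact p = 0.104, adjusted p = 0.209). Without the same pair of libraries r was -0.544, with deviations taken in the same way. With MGP_BALBcJ_G0007527, r was -0.310 (exact permutation p = 0.128, adjusted p = 0.171) and rho -0.321 (exact p = 0.241, adjusted p = 0.321). Without that pair r was -0.464, here with deviations from the means of all 10 libraries. The relation with MGP_BALBcJ_G0007527 changed the other way from that with the library total and was stronger without WT replicate 5. Without it alone r was -0.729 (exact permutation within groups, p = 0.0205, not adjusted), with deviations taken from the means of the libraries kept. Taken that way, r without both libraries was -0.641 (exact permutation p = 0.0503, not adjusted). In WT the deviations of MGP_BALBcJ_G0007527 rest on 3 to 14 reads.

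The libraries behind these values can be read one by one. The second component placed WT replicates 4 and 5 (-37.8 and -40.4) apart from WT replicates 1 to 3 (14.0 to 21.0), and WT replicates 4 and 5 were the WT libraries with most G0019191. In gp120tg, replicate 4 lay as low on the component (-34.3) but had only 8770 CPM of G0019191, below the gp120tg mean. The gp120tg libraries with 7 and 8 reads of MGP_BALBcJ_G0007527, replicates 1 and 2, were those with most G0019191 (10135 and 10243 CPM), and replicates 3, 4 and 5, with 15911, 7466 and 22039 reads of MGP_BALBcJ_G0007527, had 8395 to 9103 CPM. The order of the gp120tg libraries in G0019190 (replicates 5, 3, 1, 2 and 4 from high to low) was also their order on the second component (31.9, 26.2, 2.52, -1.76 and -34.3), whereas the WT library with most G0019190, replicate 4, was low on it. The part of library depth or of this component in the level of either gene was not tested beyond these values.

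**Figure D5:**
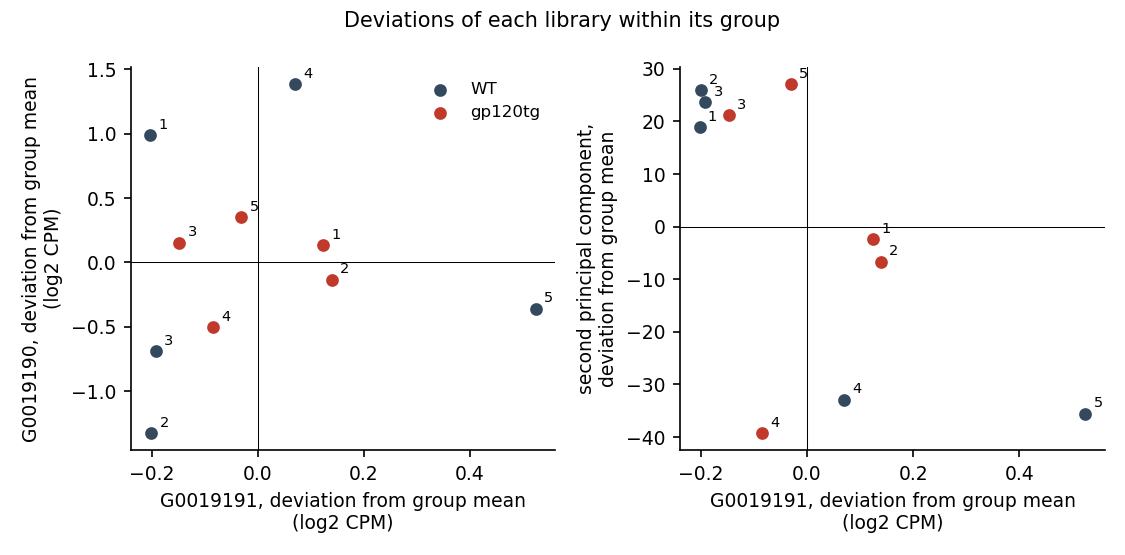
Deviation of each library from its group mean for G0019191 (horizontal, log2 CPM) against that of G0019190 (left, log2 CPM) and of the second principal component computed without the pair (right, component units); numbers are replicates. WT replicate 5 lies alone at the right of both panels, and r is 0.07 on the left and -0.653 on the right.

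Genes that follow G0019191 from mouse to mouse were sought across the whole table, with 1 slope per gene on the within-group deviations of log2 CPM of G0019191 in addition to the genotype. None (0) of the 16940 other genes passed an adjusted p under 0.05 in edgeR (0%), and the lowest adjusted p was 0.325. An unadjusted p under 0.05 was reached by 2239 genes (13.2%), 569 with a positive and 1670 with a negative slope. With DESeq2 56 genes passed. The 5 gp120tg libraries alone gave 0 genes past the adjusted threshold in edgeR and 407 with an unadjusted p under 0.05. The low-count filter was run anew on these 5 libraries, so the 407 are not a share of the same 16940 genes. The same was asked of G0019190 in the gp120tg libraries alone, where it has enough reads, a fit chosen after seeing the data. There 0 of 16940 genes passed in edgeR (0%, lowest adjusted p = 0.152) and 2576 (15.2%) had an unadjusted p under 0.05.

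The genes with the lowest slope p are named, and none of them is called a follower. They were chosen by p and not by r: of the within-group deviations of all other genes, 5 correlated with those of G0019191 at r over 0.9 and 14 at r under -0.9. Of the genes named next, MGP_BALBcJ_G0040394 (r = -0.961) and MGP_BALBcJ_G0018124 (r = -0.920) are among those 14, and none is among those 5. With positive slopes the genes of lowest p were MGP_BALBcJ_G0027129, MGP_BALBcJ_G0033186, MGP_BALBcJ_G0034738, MGP_BALBcJ_G0016866 and MGP_BALBcJ_G0010518, with a Pearson r of the within-group deviations of 0.843 to 0.898 over 10 libraries. With negative slopes they were MGP_BALBcJ_G0018124, MGP_BALBcJ_G0027018, MGP_BALBcJ_G0036179, MGP_BALBcJ_G0017170 and MGP_BALBcJ_G0040394, with r from -0.961 to -0.827. None of these 10 was called between the genotypes (edgeR adjusted p = 0.128 to 0.988). Of all genes tested 8.37% were called, so nothing is read from this count over 10 genes. As an example, the reads of MGP_BALBcJ_G0027129 were 35, 48, 19, 16 and 13 in gp120tg replicates 1 to 5 and 12, 11, 14, 16 and 68 in WT replicates 1 to 5. It was thus highest in WT replicate 5 and in gp120tg replicates 1 and 2, the libraries with most G0019191 in their groups. The other genes with positive slopes were also highest of WT in replicate 5. In gp120tg MGP_BALBcJ_G0016866 and MGP_BALBcJ_G0010518 were likewise highest in replicates 1 and 2. However, MGP_BALBcJ_G0034738 was lowest in replicate 1 (6.86 CPM), and MGP_BALBcJ_G0033186 was higher in replicate 5 (1.92 CPM) than in replicate 2 (1.64 CPM). MGP_BALBcJ_G0040394, with the strongest negative r of these 10, had 25, 17, 20, 8 and 0 reads in WT replicates 1 to 5 and 8 to 18 in gp120tg.

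Another measure of likeness, Pearson's r of log2 CPM over all 10 libraries, mainly ranks how cleanly a gene separates the genotypes, because the libraries form 2 groups. By it the 5 genes most like G0019191 were MGP_BALBcJ_G0031778, MGP_BALBcJ_G0026380, MGP_BALBcJ_G0023738, MGP_BALBcJ_G0024549 and MGP_BALBcJ_G0018147 (r = 0.990 to 0.993). MGP_BALBcJ_G0031778 was at 7.01 ± 1.20 CPM in gp120tg and 0.397 ± 0.151 in WT (SD, n = 5 each), a fitted 17.2-fold difference. MGP_BALBcJ_G0026380 was at 199 ± 13.0 CPM against 63.4 ± 6.80, MGP_BALBcJ_G0023738 at 163 ± 15.9 against 54.4 ± 6.10, MGP_BALBcJ_G0024549 at 40.2 ± 6.59 against 5.54 ± 0.384 and MGP_BALBcJ_G0018147 at 24.7 ± 2.33 against 9.24 ± 0.986 CPM (SD, n = 5 each). Their within-group deviations correlated with those of G0019191 at r = 0.130 to 0.735. G0019190 had r = 0.968 by the same measure, and 95 genes other than G0019191 itself stood above it.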

How the data were processed

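The deposited values are raw counts of reads per gene in 10 libraries, whole and not normalized. Per the submitters' processing notes the tools were HTSeq version 0.5.4, SAMtools version 0.1.18, STAR, GATK and Picard, with no role stated. Annotation release, genome build and use of strand were not given in the sources used here. Each genotype has 5 libraries, which the labels call biological replicates, and 1 library was taken as 1 mouse.

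Counts were fitted with edgeR version 4.0.16 (R version 4.3.3): factors by the trimmed mean of M values, edgeR's default filter on low counts, robust quasi-likelihood tests, all 10 libraries, and Benjamini-Hochberg adjustment over the 16941 genes tested. Genes with an adjusted p under 0.05 were called. Standard errors are the absolute log2 fold change over the square root of F. The slope on the deviations of G0019191 used the same settings. Log2 CPM used a prior count of 2. Correlations within groups were tested over all 14400 arrangements of libraries within groups. Scripts were tested on simulated data. Libraries of a group differed by at least 9.80 times the variance expected from read sampling, so none looked like another library sequenced again. Separate libraries made from the same mouse cannot be told by this check.

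Genes named are the pair, MGP_BALBcJ_G0007527, the called neighbours and the rows that flank the pair, the 5 genes per direction with the lowest slope p, the 5 most like over all libraries and the 5 most abundant rows. MGP_BALBcJ_G0024801 was added after its values were seen. The members, lists and rules were chosen with earlier results of these data known. Marker lists could not be applied to the identifiers and were left out. The alternatives were other scalings, no filter, DESeq2 version 1.42.0, a replicate block, other windows, subsets of libraries and a log2 (CPM + 1) scale.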

Additional observations from a re-analysis of the deposited data

Results flagged for a closer look

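Dixon's gap test was applied to 10 groups of values, and 1 held a library set apart from the others; chance alone marks about 1 in 20. WT replicate 5 had a total of 19176929 reads, above the other 4 WT libraries. It also had the highest WT level of G0019191, and the correlation of that level with the library total within groups fell from 0.816 to 0.558 without it.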

How the results depend on the processing

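The log2 fold changes of both genes kept their direction under all alternatives run. Nothing is read from this, because the pair was chosen on this contrast and the groups do not overlap. That of G0019191 ran from 5.77 to 5.998 when each library was left out in turn and was 6.08 without WT replicates 4 and 5 together, an alternative chosen after seeing the data, as was the second principal component as a term. That of G0019190 ran from 5.79 to 6.78 with each library left out. The 6 called neighbours became 5 to 7 with a library left out, and 3 of 45 and 1 of 19 tested rows in windows of 25 and 10 numbers, which hold fewer rows. The 0 genes that follow G0019191 became 56 with DESeq2, 0 to 4 with a library left out (4 without gp120tg replicate 4), 1 without WT replicates 4 and 5, and 0 with the second component as a term, where 412 genes had an unadjusted p under 0.05; the cause was not tested. With the replicate block 1524 genes passed. The same-numbered libraries are not shown to be pairs: their deviations correlated at -0.171 to 0.327, and 0 of the 5 gp120tg libraries correlated best with the WT library of its own number. The block gave log2 fold changes of 5.85 and 6.13 for the pair, 5 called neighbours and a correlation of 0.030 between the pair. With no scaling but library totals that correlation was -0.030, and it ran from -0.18 to 0.464 with each library left out; it turned negative without WT replicate 2 or WT replicate 3, at -0.18 and -0.035. In WT, counts of 0 to 10 limit what can be said of G0019190.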
